A study of Mus musculus with 18 samples.

Results

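Vascular endothelial cells line the vessels of the brain, and they were the first cell type removed before the microglia, astrocytes and neurons of mouse frontal cortex were captured for RNA sequencing. The 10 genes described here are markers of those cells, taken as a named list: Cldn5, Pecam1, Ptprb, Cdh5, Emcn, Itm2a, Flt1, Tek, Slco1a4 and Ly6c1, out of 56953 gene identifiers counted. All 10 had reads in all 18 libraries, and all 10 passed the filter on low counts in every fit. The question was how much endothelial RNA each captured fraction still carried, and whether it moved with fraction, drug or batch. An undepleted cortex library was not analysed here, so the values show what was left and not how much was removed.

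Mice of the strain B6;D2-Tg(S100B-EGFP)1Wjt/J, whose transgene places EGFP under the S100B promoter, received daily intraperitoneal injections for 14 days between postnatal days 60 and 74, and were killed on day 75. The 3 treatments were vehicle and the antipsychotics clozapine (10 mg/kg a day) and risperidone (dosed at 1 mg/kg). Every group carried the transgene. Frontal cortices of 5 animals made 1 pool, and after endothelial depletion each pool gave in turn a CD45 (microglia) fraction, a Thy1 (neuron) fraction and a HepaCAM (astrocyte) fraction, with oligodendrocyte lineage cells depleted after the first. With 1 pool for each treatment in each of 2 batches, the 6 pools gave 9 groups of 2 libraries. A batch is therefore also a different pool of animals, and pool and batch cannot be told apart within a treatment. The labels name male mice in one place and both sexes in another.

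Brain endothelium forms the blood-brain barrier: its cells are sealed to each other, and selected molecules cross through transporters. VEGF, a secreted ligand, supports the survival and growth of these cells and can loosen their junctions, while angiopoietin-1 steadies junctions through the receptor Tie2. Between neighbouring cells, claudin-5 (Cldn5) seals tight junctions, VE-cadherin (Cdh5) holds adherens junctions and PECAM-1 (Pecam1, CD31) adds adhesion. The phosphatase VE-PTP (Ptprb) acts on VE-cadherin and on the angiopoietin receptor Tie2 (Tek), while Flt1 is a VEGF receptor. Slco1a4 is an organic anion transporter of the blood-brain barrier, Emcn (endomucin) a sialomucin of the vessel surface, Ly6c1 a GPI-anchored surface protein of brain vessels and Itm2a an integral membrane protein. Pecam1 is also known from platelets and leukocytes, and Ly6c1 from leukocytes.

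Libraries held 4714468 to 13391163 reads assigned to genes. Each fraction carried the markers of the cell it was captured for: the summed level of 15 microglia markers was 1664 to 3242 RPKM (reads per kilobase of exon, scaled to library size) in microglia libraries and at most 421 elsewhere. For 15 astrocyte markers the sums were 1544 to 4248 in astrocyte libraries and 229 to 1563 elsewhere, and for 15 neuron markers 1239 to 3061 in neuron libraries and 243 to 1185 elsewhere. Oligodendrocyte markers summed to 1514 to 6534 RPKM in astrocyte and 1280 to 5684 in neuron libraries, compared with 112 to 617 in microglia libraries. Replicates are pools of separate animals, but each group has 2.

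The endothelial genes were a small part of every library, from 304 to 2842 reads in all, or 0.00248 to 0.0298% of assigned reads. Summed over the 10 genes, the level ran from 27.0 to 58.8 RPKM in the 6 microglia libraries (median 30.6), from 16.8 to 43.1 in the 6 astrocyte libraries (median 28.3) and from 6.88 to 25.04 in the 6 neuron libraries (median 15.7). Within a pool, the sum was higher in the microglia than in the neuron fraction in 6 of 6 pools, by 2.26-fold on average (single pools 1.12 to 5.13), and higher in the astrocyte than in the neuron fraction in 6 of 6, by 1.79-fold (1.10 to 3.77). Microglia exceeded astrocyte fractions in 4 of 6 pools, by 1.26-fold, with single pools between 0.867 and 1.61. By this sum the neuron fraction was the lowest of the 3 in each pool. Most genes were also lower in neurons, 62.9% of all genes tested against microglia and 64% against astrocytes. On the log2 scale the median gene differed by 0.62 and 0.46, and the endothelial sum by 1.18 and 0.84 on average over pools. With CPM summed in place of RPKM, microglia exceeded neurons in 5 of 6 pools, the lowest ratio being 0.997. That was the risperidone pool of batch 1, where the RPKM sums were 28.0 in microglia and 25.04 in neurons. Pecam1 made 6.89 and 3.09 RPKM of these sums, so their order in this pool rests on Pecam1. In bulk RNA, fewer endothelial cells and less endothelial RNA per cell cannot be told apart. Mural cell markers, the pericyte and smooth muscle genes of the same vessels, were also lowest in neurons: the sum over 13 of them was 36.1 to 61.0 RPKM in microglia, 39.7 to 78.2 in astrocyte and 20.8 to 35.9 in neuron libraries, and none of the 13 was at 0 throughout a fraction.

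**Figure D1:**
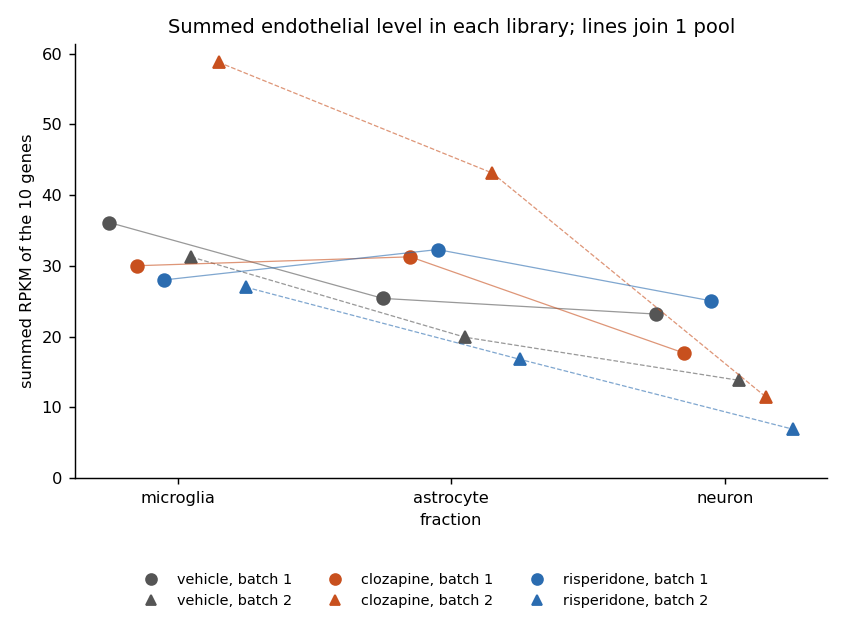
Summed level of the 10 endothelial genes in RPKM (vertical axis) by fraction; each point is 1 library, coloured by treatment, with circles for batch 1 and triangles for batch 2, and lines (solid for batch 1, dashed for batch 2) join the 3 fractions of 1 pool. The clozapine batch 2 pool reached 58.8 RPKM in microglia and 43.1 in astrocytes, and the 3 neuron libraries of batch 2 lay at 6.88 to 13.8, under the 17.7 to 25.04 of batch 1.

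Set against each other per length of exon, no member dominated. Itm2a gave 17.2% of the sum over all libraries, Pecam1 14.3%, Flt1 12.7%, Cdh5 12.6% and Ly6c1 11.1%, and Emcn the least at 2.38%. In microglia Pecam1 stood first at 7.48 ± 1.14 RPKM (SD, n = 6), above Itm2a at 5.44 ± 2.80 in 5 of 6 libraries and above Cdh5 at 4.58 ± 1.45. In astrocytes Itm2a (4.62 ± 3.38 RPKM), Flt1 (4.06 ± 2.04) and Cdh5 (3.80 ± 0.595) led, each within the spread of the next, and Pecam1 was seventh in order at 2.41 ± 0.591. In neurons Itm2a led at 3.64 ± 0.695 RPKM, with Flt1 at 2.30 ± 1.56 and Slco1a4 at 2.04 ± 1.47 behind it. Emcn was last in each fraction, at 0.694 ± 0.237, 0.823 ± 0.365 and 0.379 ± 0.30 RPKM in that order. Pecam1 alone came to 18.1 to 33.9% of the RPKM sum of the other 9 in microglia, compared with 6.14 to 19.9% in astrocytes and 3.17 to 15.7% in neurons.

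Lowest, median and highest CPM show how far single libraries spread. Flt1, the member with the most reads, ran at 35.8, 44.2 and 88.8 in microglia, at 20.5, 63.4 and 92.7 in astrocytes and at 7.01, 31.3 and 55.8 in neurons. Ptprb ran at 20.3, 24.4 and 59.6 in microglia, 19.6, 29.4 and 47.9 in astrocytes and 6.88, 14.5 and 34.5 in neurons. For both genes the 3 fractions overlapped widely. Slco1a4 ran at 5.20, 12.5 and 29.1, at 4.65, 22.1 and 25.6 and at 2.78, 12.0 and 26.5 in that order of fractions. Itm2a ran at 5.02, 7.72 and 18.5 in microglia, with the other fractions given below. The least counted of these surface genes were Ly6c1, at 2.51, 5.58 and 12.0, then 1.76, 6.03 and 9.89, then 0.334, 2.99 and 4.74, and Emcn, at 2.25, 3.59 and 5.86, then 2.03, 4.02 and 7.11, then 0.222, 1.81 and 4.59. The clozapine library of batch 2 was the highest microglia library for all 10 members.

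The members lie on 10 chromosomes, given here on GRCm39, the build of the counts, as the span of all exons. Cldn5 (ENSMUSG00000041378.3) is a single short gene at chr16:18595597-18597012, and Pecam1 lies at chr11:106545043-106641454, Ptprb at chr10:116111428-116225440 and Cdh5 at chr8:104828257-104871143. Emcn lies at chr3:137046828-137137946, Itm2a at chrX:106440705-106446982, Flt1 at chr5:147498414-147662821 and Tek at chr4:94627526-94763213. Slco1a4 is at chr6:141751166-141801925 and Ly6c1 at chr15:74915867-74920679. Both of these have close relatives in the genome, so reads may have been split among copies and their values are less certain.

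ETS-family factors are known regulators of endothelial genes, so the letters AGGAAG, a core of their sites, were looked for on both strands. RefSeq promoter windows (build GRCm38.p6) matched 7 members with 8 windows, Ly6c1 having 2. Of the 8 windows, 5 held the letters at least once in the 300 bases from 250 before to 50 after the gene start, beside 35.4% of all 32851 such windows. The 250 bases before the start are shown for 4 genes that the comparisons below turn on, 2 with the letters (Flt1 and Slco1a4, low in 1 batch of neuron libraries) and 2 without (Cldn5 and Tek, different between fractions). Capitals mark AGGAAG or its reverse complement CTTCCT, and a match is only a description of the letters.
Flt1 chr5:147726012-147726261 (minus strand): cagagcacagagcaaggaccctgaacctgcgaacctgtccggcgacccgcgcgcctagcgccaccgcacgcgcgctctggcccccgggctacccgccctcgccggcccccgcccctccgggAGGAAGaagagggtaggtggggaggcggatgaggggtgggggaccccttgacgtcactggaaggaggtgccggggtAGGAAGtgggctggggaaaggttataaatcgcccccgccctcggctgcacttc
Slco1a4 chr6:141856221-141856470 (minus strand): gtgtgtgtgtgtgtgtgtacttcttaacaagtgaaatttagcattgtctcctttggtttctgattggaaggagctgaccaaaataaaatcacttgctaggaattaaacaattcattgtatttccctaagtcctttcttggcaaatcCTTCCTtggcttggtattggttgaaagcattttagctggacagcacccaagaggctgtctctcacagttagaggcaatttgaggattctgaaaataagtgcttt
Cldn5 chr16:18776597-18776846 (plus strand): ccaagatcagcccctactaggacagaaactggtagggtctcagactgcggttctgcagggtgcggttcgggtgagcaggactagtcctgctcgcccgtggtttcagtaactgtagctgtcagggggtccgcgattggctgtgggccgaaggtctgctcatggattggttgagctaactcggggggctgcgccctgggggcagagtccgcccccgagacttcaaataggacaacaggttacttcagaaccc
Tek chr4:94739039-94739288 (plus strand): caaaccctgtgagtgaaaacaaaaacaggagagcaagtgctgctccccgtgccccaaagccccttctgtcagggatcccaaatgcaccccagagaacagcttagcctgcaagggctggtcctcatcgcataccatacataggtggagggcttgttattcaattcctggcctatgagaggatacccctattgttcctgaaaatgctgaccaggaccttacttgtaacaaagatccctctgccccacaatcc
The Flt1 stretch held the letters 2 times on the gene's own strand and the Slco1a4 stretch 1 time on the opposite strand. Pecam1, Ptprb and Cdh5 had no entry.

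Microglia and astrocyte fractions differed in 1 member. Pecam1 was higher in microglia, at 40.9, 42.7 and 56.0 CPM (lowest, median and highest of 6 libraries; CPM is the read count scaled to library size), than in astrocytes at 11.3, 14.0 and 20.6. No astrocyte library reached the lowest microglia library. The log2 difference was 1.59 (SE 0.273, edgeR quasi-likelihood test, Benjamini-Hochberg adjusted p = 0.000185), higher in 6 of 6 pools, and it was 1.88 within batch 1 and 1.40 within batch 2. A call means an adjusted p under 0.05 over all 37310 genes tested. In this comparison 6.18% of all genes were called higher in microglia, and 5.86% had microglia libraries all above the astrocyte libraries, so 1 of 10 is near that background. Of the 10 differences 5 lay above 0, with a median of 0.01 for the members and 0.02 for all genes.

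Junction genes other than Pecam1 gave log2 differences between microglia and astrocytes of 0.56 (SE 0.475, adjusted p = 0.642) for Cldn5 and 0.21 (SE 0.331, adjusted p = 0.868) for Cdh5. For the receptors and the phosphatase they were -0.12 (SE 0.391, adjusted p = 0.95) for Flt1, -0.03 (SE 0.276, adjusted p = 0.986, and 0.05 with RLE scaling) for Tek and -0.18 (SE 0.311, adjusted p = 0.884) for Ptprb. Surface and transport genes gave -0.28 (SE 0.479, adjusted p = 0.876) for Emcn, 0.40 (SE 0.32, adjusted p = 0.609) for Itm2a, 0.06 (SE 0.462, adjusted p = 0.982) for Ly6c1 and -0.35 (SE 0.429, adjusted p = 0.796) for Slco1a4. None of these 9 passed. Slco1a4 stood at -1.32 within batch 1 and 0.94 within batch 2, and Flt1 at -0.62 and 0.63, so their signs differed between batches.

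Markers of blood and border cells also stood high in the microglia fraction. Of 14 blood leukocyte markers, 2 were called higher than in astrocytes and 13 higher than in neurons, with summed levels of 28.5 to 63.5 RPKM in microglia, 16.5 to 24.9 in astrocyte and 8.15 to 13.1 in neuron libraries. Of 7 erythrocyte markers, 5 and 6 were called higher (sums of 1423 to 18410 RPKM in microglia, 211 to 513 in astrocytes and 49.6 to 451 in neurons). Of 8 border macrophage markers, 5 and 8 were called higher, with sums of 16.8 to 134 RPKM, 5.28 to 15.2 and 3.67 to 10.1. Of all genes, 6.18% were called higher in microglia than in astrocytes and 28.2% higher than in neurons. No marker of these lists was at 0 in all libraries of a fraction. Their part in the Pecam1 difference was not tested.

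Against the neuron fraction, 4 members were called higher in microglia and none lower: Pecam1, Cldn5, Cdh5 and Tek. Neuron libraries carried Pecam1 at 2.19, 8.39 and 19.2 CPM (lowest, median, highest), and its log2 difference was 2.45 (SE 0.284, adjusted p = 1.48e-06). Cdh5, at 14.4, 16.7 and 30.1 CPM in microglia and 1.33, 6.25 and 12.7 in neurons, differed by 1.41 (SE 0.344, adjusted p = 0.00234). Both genes had every microglia library above every neuron library, as did Tek, with 6.93, 9.96 and 12.5 CPM in microglia and 2.74, 4.75 and 6.83 in neurons. The Tek difference was 0.94 (SE 0.283, adjusted p = 0.0106). Cldn5, the tight junction claudin, was low in both, at 2.02, 3.47 and 7.89 CPM and 0.238, 0.905 and 2.07, with libraries of 14 to 70 reads against 2 to 16, and differed by 1.85 (SE 0.502, adjusted p = 0.00532). Here 28.2% of all genes were called higher in microglia and 11.4% had the libraries of the 2 fractions apart in that direction, beside 4 and 3 of 10 members.

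The 6 members that did not pass gave log2 differences of 0.65 (SE 0.315, adjusted p = 0.0925) for Ptprb, 0.91 (SE 0.469, adjusted p = 0.11) for Ly6c1, 0.79 (SE 0.494, adjusted p = 0.188) for Emcn and 0.62 (SE 0.394, adjusted p = 0.196) for Flt1. Itm2a stood at 0.42 (SE 0.318, adjusted p = 0.271) and Slco1a4 at 0.05 (SE 0.431, adjusted p = 0.938). Every one of the 10 was above 0, but so was the typical gene: the median over all genes was 0.62 and over the members 0.85, and 7 of 10 members lay above the all-gene median. RLE scaling moved the all-gene medians to 0.81 here and to 0.58 between astrocytes and neurons. Read against the all-gene median of 0.62, the called genes stood at 1.83 (Pecam1), 1.23 (Cldn5), 0.80 (Cdh5) and 0.32 (Tek).

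Between astrocytes and neurons, Cdh5, Tek and Pecam1 were called higher in astrocytes. Cdh5, at 11.3, 16.3 and 18.6 CPM in astrocytes, differed from neurons by 1.21 (SE 0.343, adjusted p = 0.0172) and was higher in 6 of 6 pools. Tek, at 5.81, 10.7 and 11.7 CPM, differed by 0.96 (SE 0.283, adjusted p = 0.0202), also in 6 of 6. Pecam1 differed by 0.86 (SE 0.278, adjusted p = 0.0315), in 4 of 6 pools. For each of the 3 the lowest astrocyte library lay below the highest neuron library. In this comparison 14.6% of all genes were called higher in astrocytes, 2.78% had the fractions apart in that direction, and no member did.

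The 7 other members were not called between astrocytes and neurons, though all 10 differences were above 0 (median 0.85, against 0.46 over all genes). Cldn5 came to 1.29 (SE 0.504, adjusted p = 0.0628), Ptprb to 0.82 (SE 0.315, adjusted p = 0.0591), Emcn to 1.07 (SE 0.494, adjusted p = 0.108) and Flt1 to 0.74 (SE 0.395, adjusted p = 0.162). Ly6c1 came to 0.85 (SE 0.468, adjusted p = 0.172), Slco1a4 to 0.40 (SE 0.43, adjusted p = 0.495) and Itm2a to 0.02 (SE 0.331, adjusted p = 0.973). Itm2a was the member with the most even level in the neuron fraction, at 5.12, 6.19 and 8.07 CPM, against 2.08, 7.03 and 17.7 in astrocytes.

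**Figure D2:**
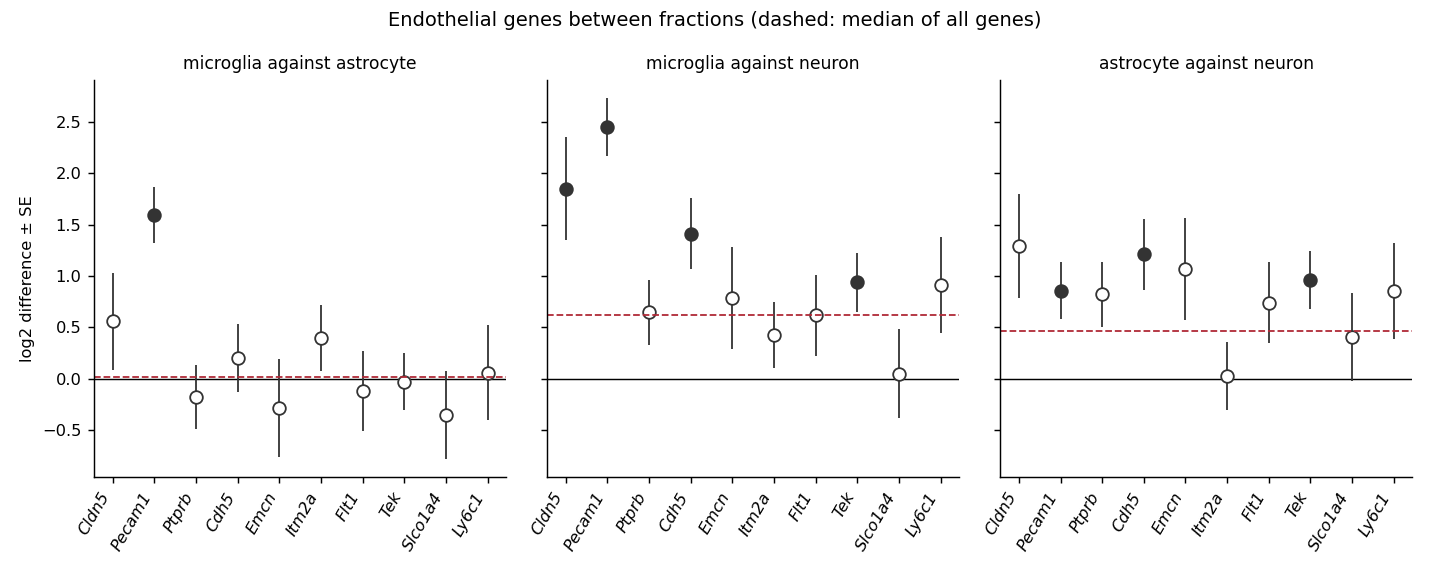
Log2 difference between fractions with its standard error (vertical axis) for each member; each point is 1 gene, filled where the adjusted p was under 0.05 and open otherwise, and the dashed line is the median over all genes tested. Pecam1 is called in all 3 comparisons, and against neurons 7 and 8 of 10 genes lie above the dashed line, at 0.62 for microglia and 0.46 for astrocytes.

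The fraction differences were not alike in both batches. Microglia exceeded neurons by 2.64 in batch 2 and 0.75 in batch 1 for Cdh5, and by 2.25 and -0.27 for Flt1. For Slco1a4 the values were 1.83 and -1.13, and for Ptprb 1.92 and -0.11. Tek, at 1.05 and 1.00, Cldn5, at 2.11 and 1.55, and Pecam1, at 3.14 and 2.06, were higher in microglia in both. Astrocytes exceeded neurons by 1.75 in batch 2 and 0.17 in batch 1 for Pecam1, and by 1.10 and 0.90 for Tek. With each pool as a block, Ptprb (adjusted p = 0.0473, over alternatives 0.0147 to 0.377) and Flt1 (0.0441, over alternatives 0.0226 to 0.689) were also called between microglia and neurons, and Ptprb between astrocytes and neurons (0.0435, over alternatives 0.00671 to 0.397).

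The number called against neurons depended on single libraries. Without neuron risperidone replicate 1, the neuron library with the largest endothelial sum, 8 members were called higher in microglia than in neurons, with 35.3% of all genes, and 8 higher in astrocytes than in neurons, with 23% of all genes. Without neuron vehicle replicate 1 the second count was 5 (17.8% of all genes). It was 1, Cdh5 both times, without neuron risperidone replicate 2 (7.4% of all genes) and without astrocyte vehicle replicate 2 (5.71%). With the vehicle libraries alone, 0, 1 and 0 members were called higher in the 3 comparisons, Pecam1 being the 1, beside 1.59%, 3.13% and 0% of all genes. In these runs the share of all genes called moved in the same direction as the count of members, but not in every run. With each pool as a block, 6 and 4 members were called against neurons in microglia and astrocytes. The shares of all genes were then 21.3% and 7.86%, below the 28.2% and 14.6% of the main fit. Without microglia clozapine replicate 1 the counts were 5 and 4, with 21.9% and 14% of all genes.

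In neurons the 2 batches differed. Ptprb, Flt1 and Slco1a4 were called lower in batch 2 there, and no member was called higher. Flt1 had 55.8, 45.1 and 48.7 CPM in the vehicle, clozapine and risperidone libraries of batch 1 and 12.6, 17.4 and 7.01 in those of batch 2, a log2 difference of -2.11 (SE 0.276, adjusted p = 0.0171). Slco1a4 had 26.5, 20.8 and 15.0 CPM in batch 1 and 9.08, 4.29 and 2.78 in batch 2 (-2.08, SE 0.3, adjusted p = 0.0247). Ptprb had 20.2, 26.3 and 34.5 CPM in batch 1 and 8.18, 6.88 and 8.78 in batch 2 (-1.77, SE 0.263, adjusted p = 0.0296). For each gene all 3 libraries of batch 2 lay below all 3 of batch 1. Only 0.196% of the 25510 genes tested were called lower in batch 2.

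A further 3 members, Cdh5, Emcn and Ly6c1, had the neuron libraries of batch 2 apart from and below those of batch 1 without being called, which makes 6 of 10, where 15.2% of all genes did so. Cdh5 had 12.7, 6.79 and 12.7 CPM in batch 1 and 5.72, 3.19 and 1.33 in batch 2, and Emcn had 3.09, 2.38 and 4.59 against 1.23, 0.797 and 0.222. The lowest values rest on few reads, with 2 for Emcn and 3 for Ly6c1 in the risperidone library of batch 2. Pecam1 was also lower in batch 2 in 3 of 3 treatments, but its libraries overlapped. Cldn5 (-0.17), Tek (-0.36) and Itm2a (0.18) had overlapping batches and were not called. Itm2a made 12.9 to 18.6% of the summed RPKM in batch 1 neuron libraries and 33.5 to 42.7% in batch 2. Over the 10 members the median log2 difference was -1.69, with 9 below 0, and over all genes it was -0.10, with 54.7% below 0.

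Neuron libraries of the 2 batches differed in more than these genes. Those of batch 2 were deeper, with 11382702 to 13391163 assigned reads against 6520597 to 11251682, and summed neuron markers were 2582 to 3061 RPKM against 1239 to 2218. Oligodendrocyte markers summed to 1280 to 1608 RPKM in batch 2 and 2645 to 5684 in batch 1, while the level of the median marker overlapped, at 37.02 to 50.1 and 35.3 to 54.4 RPKM, and 0 of 15 were called by edgeR. Neuron markers had 2 of 15 called higher. Mural markers, also of vessels, summed to 20.8 to 26.3 RPKM against 30.2 to 35.9, with 0 of 12 called. Erythrocyte markers summed to 49.6 to 253 RPKM against 118 to 451. Whether these shifts have a part in the endothelial difference was not tested. Leaving out 1 neuron library at a time gave 1 to 7 called members, and over the same runs 60 to 4295 genes called in either direction. There was 1 member (Flt1) without risperidone replicate 1. There were 7 without clozapine replicate 2, and 5 without clozapine replicate 1 or vehicle replicate 1. The median of the members stayed below 0, at -0.95 without risperidone replicate 1 and -0.93 without risperidone replicate 2.

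**Figure D3:**
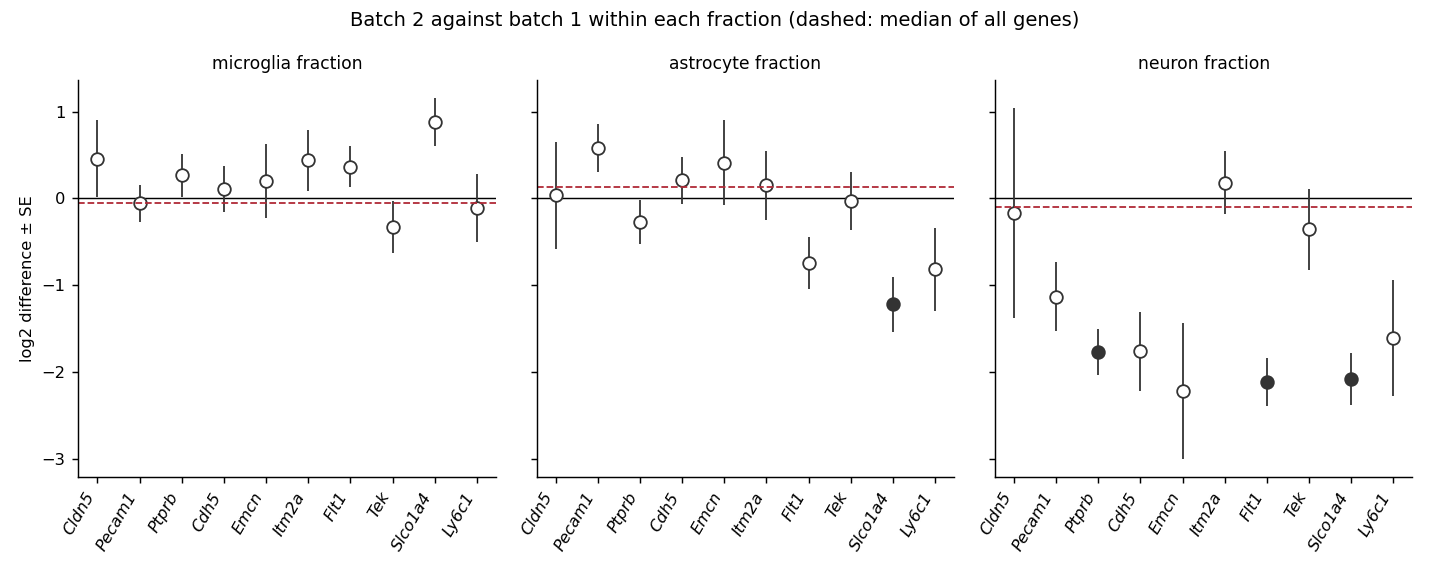
Log2 difference of batch 2 against batch 1 with its standard error (vertical axis) for each member in the 3 fractions; points are genes, filled where called, and the dashed line is the median over all genes. In neurons 9 of 10 genes lie below 0 with Flt1 at -2.11, while in microglia 7 of 10 lie above it.

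In astrocytes 1 member, Slco1a4, was called lower in batch 2, where 3.56% of 31022 genes were. Its values were 23.1, 25.3 and 21.2 CPM in vehicle, clozapine and risperidone of batch 1 and 6.23, 25.6 and 4.65 in batch 2, a log2 difference of -1.22 (SE 0.318, adjusted p = 0.0148). The clozapine library of batch 2 stood with batch 1, so the groups overlapped. No member's libraries were apart and lower in batch 2, compared with 14.2% of all genes. Pecam1 had its libraries apart and higher, at 14.1 to 20.6 CPM in batch 2 and 11.3 to 13.8 in batch 1. It was not called (0.58, SE 0.28, edgeR adjusted p = 0.214). The share of all genes apart in that direction was not counted. Without either clozapine library 3 members were called lower (Flt1, Slco1a4 and Ly6c1), and without any 1 of the other 4 libraries none was. Over these 6 runs 118 to 5194 genes were called in either direction. Flt1 showed the same split as Slco1a4, with 62.4, 64.4 and 64.4 CPM in batch 1 and 24.4, 92.7 and 20.5 in batch 2.

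Microglia showed no call by batch in edgeR (0 of 10 members, with DESeq2 also at 0), while 4.25% of 32846 genes were called. At an unadjusted p under 0.05 there was 1 member, with no share of all genes given here. The member with the smallest p was Slco1a4, with 11.9, 12.1 and 5.20 CPM in batch 1 and 14.7, 29.1 and 12.9 in batch 2 (0.88, SE 0.278, adjusted p = 0.0793), opposite in sign to the other fractions. No member had its libraries apart and lower in batch 2 (6.77% of all genes). Slco1a4 had its libraries apart and higher, at 12.9 to 29.1 CPM in batch 2 and 5.20 to 12.1 in batch 1. The share of all genes apart in that direction was not counted. Without vehicle replicate 1 the called members were 2, and without vehicle replicate 2 there was 1. Over the 6 runs that left out 1 microglia library, 1008 to 1702 genes were called in either direction.

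Across all 18 libraries, with the 9 groups in the model, no member was called by batch (0.123% of 37310 genes were called). At an unadjusted p under 0.05 there were 4 members, with no share of all genes given here, and DESeq2 called 0. Log2 differences of batch 2 against batch 1 were -0.79 (SE 0.3, adjusted p = 0.401) for Flt1, -0.79 (SE 0.343, adjusted p = 0.528) for Slco1a4, -0.80 (SE 0.367, adjusted p = 0.584) for Ly6c1 and -0.54 (SE 0.238, adjusted p = 0.539) for Ptprb. Cdh5 gave -0.38 (SE 0.271, adjusted p = 0.897), Emcn -0.40 (SE 0.418, adjusted p = 0.993), Tek -0.21 (SE 0.228, adjusted p = 0.996) and Pecam1 -0.13 (SE 0.223, adjusted p = 0.999). Cldn5 gave 0.16 (SE 0.425, adjusted p = 0.999) and Itm2a 0.29 (SE 0.263, adjusted p = 0.968). This pooled value joins fractions that differ, since the batch difference itself differed between fractions for 5 members, in a test added after seeing the data, where 12.1% of all genes were called. That edgeR test takes the 3 fractions together and gave adjusted p = 0.00245 for Slco1a4, 0.00669 for Ptprb, 0.00681 for Flt1, 0.0229 for Cdh5 and 0.0387 for Pecam1. It does not say which fractions differ, and no single pair was tested. As a description, the batch difference in neurons less that in microglia was -2.79 for Slco1a4, -2.31 for Flt1, -1.86 for Ptprb, -1.68 for Cdh5 and -0.88 for Pecam1. In astrocytes less microglia it was -2.09, -1.11, -0.54, 0.10 and 0.64 in the same order, so Cdh5 and Pecam1 had opposite signs there. Without neuron risperidone replicate 1 or replicate 2, Cdh5 and Pecam1 were no longer called and the count was 3.

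No drug changed a member past the test. In each of the 6 comparisons with vehicle, 0 of 10 members and 0% of all genes were called by edgeR, and DESeq2 called 0 members in each. At an unadjusted p under 0.05 there were 1, 2 and 1 members for clozapine in microglia, astrocytes and neurons, and 1, 0 and 0 for risperidone. The share of all genes at that unadjusted threshold is not given here, so these counts have no background to be read against. With 2 pools a group, a missed threshold does not show that the drugs left these genes alone.

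Itm2a had the smallest p of any member with vehicle as the reference. In astrocytes it stood at 2.08 and 3.93 CPM with vehicle, 10.1 and 17.7 with clozapine and 10.5 and 3.92 with risperidone (batch 1, then batch 2). Both clozapine libraries lay above both vehicle libraries, while the risperidone libraries overlapped them. For drugs, the share of all genes with libraries apart was not counted. The log2 difference for clozapine was 2.09 (SE 0.592, unadjusted p = 0.00452, edgeR adjusted p = 1), at 2.15 and 2.10 within the batches, and for risperidone 1.20 (SE 0.589, adjusted p = 1), at 2.21 and near 0. Ptprb, the other astrocyte member by the rule, had 25.7 and 22.2 CPM with vehicle and 47.9 and 45.0 with clozapine (0.87, SE 0.35, adjusted p = 1), and Emcn with risperidone gave -1.06 (SE 0.649, adjusted p = 1).

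In microglia, Ptprb had 25.01 and 20.3 CPM with vehicle and 27.9 and 59.6 with clozapine, a difference of 0.92 (SE 0.371, edgeR adjusted p = 1) that was 0.16 within batch 1 and 1.54 within batch 2. Emcn had 2.25 and 2.78 CPM with vehicle and 4.45 and 5.86 with clozapine (1.01, SE 0.487, adjusted p = 1). Clozapine libraries lay above vehicle libraries for both genes. Both were named for their small p, and the share of all genes apart in that direction was not counted. Ly6c1 stood at 10.3 and 4.98 CPM in the vehicle libraries and at 2.60 and 2.51 in those of risperidone (-1.46, SE 0.515, adjusted p = 0.929), and Cdh5 gave 0.56 with risperidone (SE 0.377, adjusted p = 0.929). Over the members the median for clozapine was 0.47, with 9 of 10 above 0, against -0.01 and 48.8% over all genes. Without the batch 2 clozapine library the members' median was -0.14, so its sign came from that 1 library. Markers of some other cells had medians above 0 in the same comparison, none of them called by edgeR: 0.59 for astrocyte markers (14 of 15 above 0), 0.48 for neuron markers (13 of 15), 0.66 for oligodendrocyte markers (15 of 15) and 0.36 for mural markers (12 of 13). Sums of other lists rose in 1 batch and fell in the other. From vehicle to clozapine, oligodendrocyte precursor markers went from 26.8 to 29.9 RPKM in batch 1 and 45.2 to 27.6 in batch 2. Vascular fibroblast markers went from 14.7 to 15.6 and from 23.5 to 14.75. Border macrophage markers went from 134 to 52.5 and from 16.8 to 36.7. Blood leukocyte markers went from 63.5 to 49.6 and from 28.5 to 34.7. The part of these lists in the members' median was not tested. For clozapine in astrocytes the members' median was 0.73, with 7 of 10 above 0 (46.8% of all genes), beside 0.61 for neuron markers. With 1 astrocyte library left out it ran from 0.28 to 0.75. In neurons the members' median was -0.28, with 2 of 10 above 0 (47.1% of all genes). It was 0.37 without neuron vehicle replicate 1 and -0.99 without neuron clozapine replicate 1, so its sign depended on 1 library.

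In neurons, Pecam1 had 12.8 and 11.7 CPM with vehicle, 5.12 and 2.19 with clozapine and 19.2 and 4.78 with risperidone. Clozapine libraries lay below vehicle libraries, with a difference of -1.76 (SE 0.657, unadjusted p = 0.0213, edgeR adjusted p = 1), -1.29 within batch 1 and -2.28 within batch 2. The share of all genes apart in that direction was not counted. Tek with clozapine gave -0.66 (SE 0.618, adjusted p = 1), and with risperidone Slco1a4 gave -0.97 (SE 0.832, adjusted p = 1) and Ptprb 0.65 (SE 0.719, adjusted p = 1). The standard errors in neurons were larger than in microglia for each of these genes, beside the batch differences given above.

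**Figure D4:**
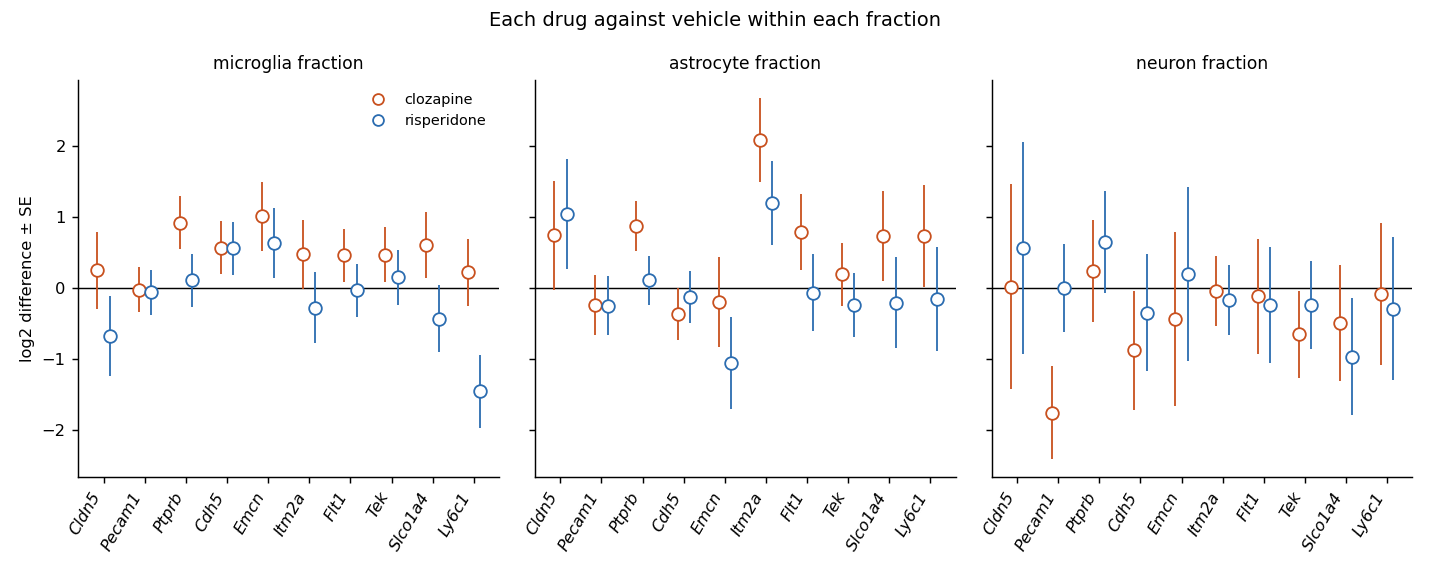
Log2 difference of clozapine (orange) and risperidone (blue) against vehicle with its standard error (vertical axis) for each member in the 3 fractions, with n = 2 pools a group; all points are open because none was called. Itm2a in astrocytes reaches 2.09 with clozapine, and Pecam1 in neurons -1.76.

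Clozapine and risperidone were compared directly in the 3 fractions, and 0 of 10 members and 0% of genes were called in each by edgeR, with DESeq2 also calling 0 members. At an unadjusted p under 0.05 there were 2, 0 and 1 members, with no share of all genes given here. In microglia Ly6c1 had 6.17 and 12.0 CPM with clozapine and 2.60 and 2.51 with risperidone (1.67, SE 0.512, adjusted p = 0.671). In astrocytes Ptprb had 47.9 and 45.0 CPM against 33.1 and 19.6 (0.76, SE 0.348, adjusted p = 1), and in neurons Pecam1 had 5.12 and 2.19 against 19.2 and 4.78 (-1.75, SE 0.658, adjusted p = 1). These comparisons share their libraries with those against vehicle. A test of whether a drug's effect differed between fractions called 0 of 10 members and 0% of genes for either drug in edgeR, and DESeq2 called 0. At an unadjusted p under 0.05 there were 2 members for clozapine and 0 for risperidone, again with no share of all genes given here. Itm2a had the smallest p for both (0.0367 and 0.137, adjusted p = 1 for each).

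**Figure D5:**
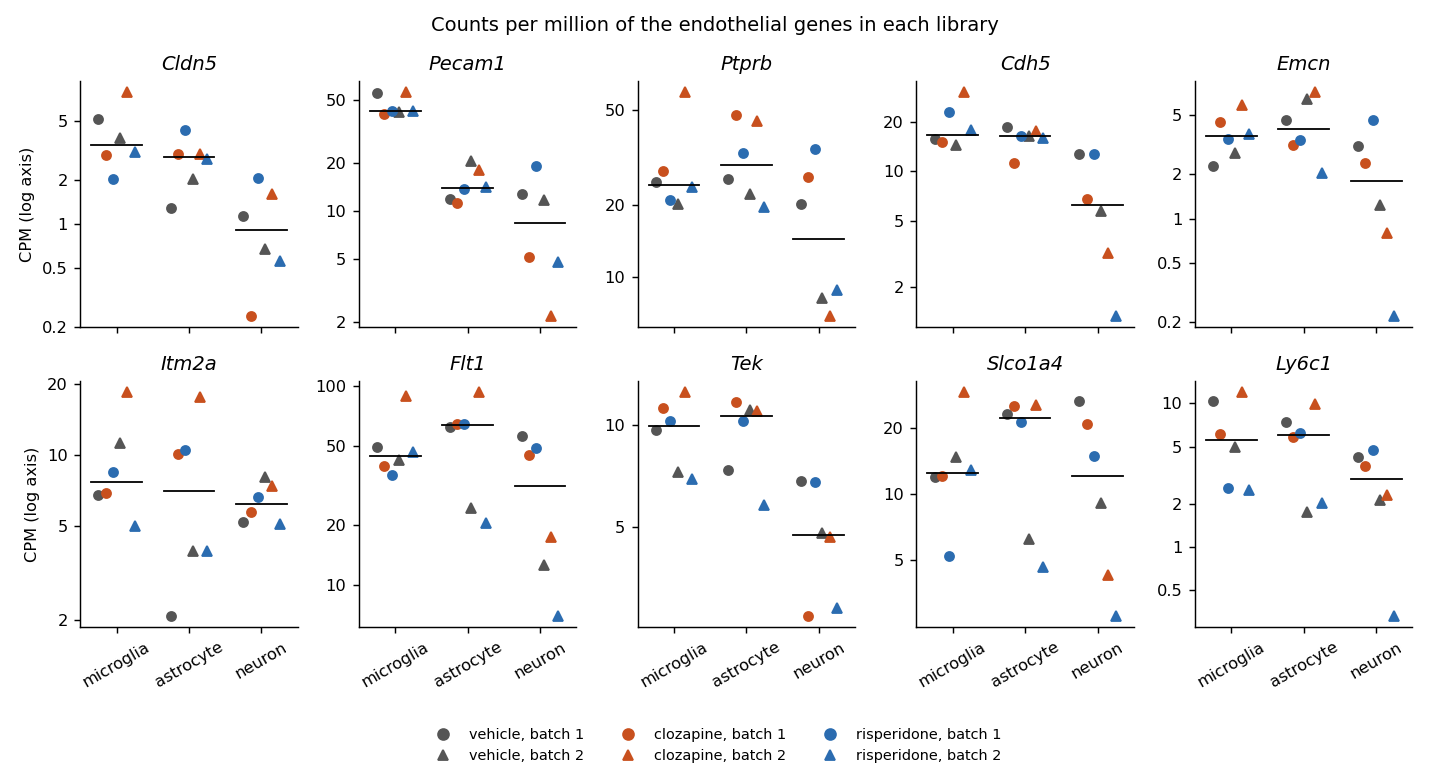
CPM (vertical axis, log scale) of each endothelial gene in the 18 libraries by fraction; points are libraries, coloured by treatment, with circles for batch 1 and triangles for batch 2, and the black line is the median of 6. Pecam1 in microglia lies between 40.9 and 56.0, above every astrocyte and neuron library, and the triangles of Flt1 and Slco1a4 in neurons lie below the circles.

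The members kept company across libraries to different degrees. Over the 18 libraries and 45 pairs, Pearson's r of log2 CPM ran from 0.18 to 0.90 with a median of 0.65; fraction, batch and depth are shared by these points, so r is a description. Itm2a had the lowest median r with the other members (0.36), and Flt1 the highest (0.77). The 5 protein-coding genes outside the list most like the members' mean were Adgrf5 (r = 0.95), Fzd6 (0.947), Abcb1a (0.941), Kdr (0.899) and Adgrl4 (0.894), each over 18 libraries. Abcb1a encodes an efflux pump of the blood-brain barrier, Kdr the main VEGF receptor, Fzd6 a Wnt receptor, and Adgrf5 and Adgrl4 adhesion receptors. Their levels ran from 1.33 to 33.6 CPM for Abcb1a and from 4.23 to 30.5 for Kdr.

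A wider list of 85 genes tied to endothelium, in 7 roles with members left out, also held ligands such as Vegfa and Vegfb. It was thus not limited to endothelial markers. It showed a mixed picture between microglia and astrocytes, with 11 called higher in microglia and 10 lower, where 6.18% and 6.85% of all genes were. Against neurons 35 were called higher in microglia and 10 lower (28.2% and 18.8% of all genes), and 19 higher in astrocytes and 5 lower (14.6% and 9.17% of all genes). Among receptors and ligands, the neuropilin Nrp2 was higher in microglia than in astrocytes (2.09, SE 0.314, edgeR adjusted p = 4.36e-05), while the ligands Vegfa (-1.25, SE 0.315, adjusted p = 0.00742) and Vegfb (-0.85, SE 0.28, adjusted p = 0.0472) were lower. Of junction genes, F11r (2.77, SE 0.428, adjusted p = 6.14e-05) was higher in microglia. The transcription factor genes Fli1 (2.77), Ets1 (2.47) and Klf2 (2.41) were called higher in microglia, and none of the 13 tested was called lower. F11r, Fli1 and Ets1 are also known from blood and immune cells.

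Transport genes split: Slco2b1 was higher in microglia than in astrocytes (2.68, SE 0.386, edgeR adjusted p = 2.92e-05), while Mfsd2a (-1.30, SE 0.219, adjusted p = 0.000157), a lipid transporter of brain endothelium, and Slco1c1 (-1.28, SE 0.308, adjusted p = 0.00527), a thyroid hormone transporter also known from astrocytes, were lower. Against neurons, the VEGF receptor gene Kdr (1.34 in microglia, 1.08 in astrocytes) and the glucose transporter gene Slc2a1 (1.22 and 0.79) were called higher in both other fractions. Flt4, a VEGF receptor gene (1.65), and Vwf, the von Willebrand factor gene (1.28), were called higher in astrocytes. Ackr1, a chemokine receptor of venules, was called lower in both (-1.70 and -1.48). By batch in neurons, 1 of 82 tested was called lower, the angiopoietin pathway receptor Tie1 (-2.56, SE 0.431, adjusted p = 0.0423), named here after its values were seen, and 0 were called higher.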

How the data were processed

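Total RNA of 18 immunopanned libraries was depleted of ribosomal RNA and sequenced as paired ends, per the labels' protocols. The authors deposited counts per gene from featureCounts 2.0.8 on GRCm39 with no strand setting, per the file headers; mates were counted as separate reads, and for the aligner a name was not given in the sources used here. FastQC is named in the submitters' processing notes. Symbols from GENCODE matched 52029 of 56953 identifiers, which held 96.2% of counts.

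From these counts, TMM-scaled CPM and RPKM by exon length were computed. Differences were tested with edgeR 4.0.16 (R 4.3.3, quasi-likelihood test, filterByExpr, Benjamini-Hochberg adjusted p under 0.05 over all genes tested); fractions and the pooled batch test used all 18 libraries, and drugs and batch within a fraction used its 6 libraries. DESeq2 1.42.0, RLE scaling, no filter, an adjusted p under 0.10, a replicate block, vehicle libraries alone and each library left out were alternatives. The fits were tested on simulated data. log2 CPM for correlations used a prior count of 2.

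The members and gene lists were chosen with earlier results of these data known. All 10 members are named for the fraction and pooled batch tests. In the drug tests the 2 with the smallest p are named (1 between drugs). In the others those called are named, or the 1 with the smallest p. From the wider list at most 4 genes per role are named. Fractions of 1 pool come from the same animals, per the labels, which gives the pairing. Deviations from group means of libraries from the same pool correlated at -0.377 to 0.119, and of the same fraction and batch at 0.0988 to 0.451.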

Additional observations from a re-analysis of the deposited data

Results flagged for a closer look

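In 4 of 33 sets of 6 libraries tested, 1 library stood apart from the other 5 by more than Dixon's critical ratio of 0.625. For 1 set of independent values from 1 population, chance gives about 1 in 20. The count of 4 cannot be read against that rate, because the sets share libraries and each mixes treatments and batches. The summed level also contains Ptprb and Flt1, so its flag and theirs, all from 1 library, are not separate findings. That library was the microglia library of the clozapine pool of batch 2. For the summed level of the 10 genes it stood at 58.8 RPKM (gap over range 0.712). For Ptprb it stood at 59.6 CPM (0.806) and for Flt1 at 88.8 CPM (0.745). The same pool had the highest astrocyte sum. Its neuron markers were also the highest of each fraction, at 1185 RPKM in its microglia library (the other 5 at 243 to 784) and 1081 in its astrocyte library (the other 5 at 376 to 905), and their part was not tested. The astrocyte library of the clozapine pool of batch 1 was the lowest for Cdh5 (11.3 CPM, 0.642).

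The batch difference differed among the 3 fractions, by a joint test of all 3 added after seeing the data, for 5 members. The neuron less microglia values on the log2 scale, which were not tested as a pair, were -2.79 (Slco1a4), -2.31 (Flt1), -1.86 (Ptprb), -1.68 (Cdh5) and -0.883 (Pecam1).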

How the results depend on the processing

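With the vehicle libraries alone, 0 members were called between microglia and astrocytes, 1 between microglia and neurons and 0 between astrocytes and neurons. Without the low-count filter the last pair of counts were 7 and 5, where 23.1% and 13.5% of all genes were called higher in microglia and in astrocytes. By batch there were then 2 over all libraries, 1 in microglia and 5 in neurons, with no share of all genes given here. DESeq2 called 5 between astrocytes and neurons, as did an adjusted p under 0.10. The wider threshold also called 1 by batch in microglia, and the share of all genes for that count is not given here. Higher in astrocytes than in neurons were then 23.8% of all genes with DESeq2 and 24.1% at the wider threshold. The replicate block (pool) added Ptprb and Flt1 between microglia and neurons and Ptprb between astrocytes and neurons, and changed no other member's call. The causes were not tested.

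Leaving out 1 library at a time gave 1 to 1 members between microglia and astrocytes, 4 to 8 between microglia and neurons and 1 to 8 between astrocytes and neurons. By batch it gave 0 to 2 in microglia, 0 to 3 in astrocytes, 1 to 7 in neurons and 0 to 0 over all libraries. For the difference between fractions it gave 3 to 6. In either direction, the same runs called 3423 to 5704, 14222 to 21438 and 3877 to 13434 genes between fractions, in that order. By batch they called 1008 to 1702 genes in microglia, 118 to 5194 in astrocytes and 60 to 4295 in neurons. They called 26 to 290 genes over all libraries and 1645 to 8554 for the difference between fractions. The drug comparisons stayed at 0 members in every alternative run.

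Small log2 differences that were not called changed sign. Between microglia and astrocytes, Cdh5 was -0.247 with vehicle alone; Flt1 was 0.0656 with the replicate block and 0.0747 with vehicle alone; Tek was 0.0505 with DESeq2, 0.0512 with RLE scaling and 0.00742 without the filter. Against neurons, with vehicle alone, Slco1a4 was -0.477 for microglia and -0.343 for astrocytes and Itm2a -1.21 for astrocytes; Itm2a was -0.0416 with the block. With 1 library left out, ranges that crossed 0 between microglia and astrocytes were -0.31 to 0.26 (Flt1), -0.105 to 0.153 (Tek), -0.613 to 0.176 (Slco1a4) and -0.139 to 0.512 (Ly6c1). They were -0.214 to 0.65 for Slco1a4 between microglia and neurons, and -0.225 to 0.263 (Itm2a) and -0.0446 to 0.966 (Slco1a4) between astrocytes and neurons. Ptprb with risperidone in neurons ran from -0.654 to 1.38, and the pooled batch difference from -0.0411 to 0.385 for Cldn5 and -0.276 to 0.0837 for Pecam1. Low counts limit Cldn5, Emcn and Ly6c1 most, with 2 or 3 reads in their lowest neuron libraries.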
